A study of Mus musculus with 6 samples.

Results

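The matrix metalloproteinases and their tissue inhibitors were followed in gingiva, the mucosa around the teeth, of mice without plasminogen. The 10 genes followed, called members below, were read by symbol from a count table of 48709 genes. They were the stromelysins Mmp3 and Mmp10, the gelatinases Mmp2 and Mmp9, the collagenases Mmp8 and Mmp13, the metalloelastase Mmp12, the membrane-bound Mmp14 and the inhibitors Timp1 and Timp3. All 10 passed the filter on low counts and were among the 17757 genes tested. The 6 RNA sequencing libraries came from C57BL/6 mice aged 12 weeks, 3 of the genotype Plg KO and 3 of wild-type littermates (Plg WT), with no treatment named. Whether each library is its own animal is not in the labels, and the p-values below therefore cover only library-to-library spread, part of which may be technical. In whole tissue, fewer cells of a type and less RNA per cell cannot be told apart.

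Metalloproteinases are zinc enzymes that cut collagens, laminins, elastin and other parts of the extracellular matrix. Most are secreted as inactive proenzymes, and plasmin, the protease made from plasminogen, is one of the enzymes that can remove the propeptide. TIMP proteins bind the active site and block it. In gingiva these enzymes are known for matrix turnover, for the movement of epithelium and leukocytes, and for the collagen loss of periodontitis. Transcript levels say nothing of the activated enzyme.

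Depth was 26183389 to 36429150 gene counts per library, so that a gene at 0 could still have up to 0.081 to 0.117 CPM (3 counts, counting error only, with CPM for depth-normalised counts after TMM scaling). Plg itself had 2 counts in Plg WT 3, 2 in Plg KO 1 and 0 in the other 4 libraries, so it checks no genotype label in this tissue. The male-specific Ddx3y was counted 1475 times in Plg WT 3, 1838 times in Plg KO 1 and at most 2 times elsewhere, so each group holds 1 such library. Epithelial keratins defined the tissue (Krt4 at 12291 to 21312 CPM and Krt14 at 13590 to 16724 CPM over the 6 libraries). Other tissue came with it in uneven amounts. Salivary gland genes (6 summed) stood at 1659 CPM for Plg WT 3, 3084 CPM for Plg WT 2 and 7903 to 10438 CPM for the other 4 libraries, and the sum of 3 skeletal muscle genes was 1613 CPM in Plg KO 1 and 3763 to 7532 CPM in the rest. Their part in the results below was not tested.

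The stromelysin Mmp10 and the gelatinase Mmp9 rose in Plg KO gingiva, and none of the 10 members fell by the same test. By the quasi-likelihood test of edgeR, with Benjamini-Hochberg adjusted p under 0.05 over all genes, 2 of the 10 were called higher, against 0.191% of all tested genes, and 0 lower, against 0.0451% (0.237% in either direction). At an unadjusted p under 0.05 the counts were 6 higher and 2 lower, against 4.97% and 4.27% of all genes. DESeq2 called 5 higher (Mmp8, Mmp9, Mmp10, Mmp12 and Mmp13), against 1.40% of its genes, and 0 lower, against 0.702%, and limma-voom called 2 higher, Mmp9 and Mmp10, against 0.180% of all tested genes, and 0 lower, against 0.0507%. In 6 members the 3 Plg KO libraries all lay above the 3 Plg WT libraries, which held for 7.51% of all genes, and in 1, Mmp2, they all lay below (7.18% of all genes). The median log2 change of the 10 members was 1.56 and that of all tested genes was -0.0043. These members were chosen with results of the same libraries known, so the shares are given as a description.

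**Figure D1:**
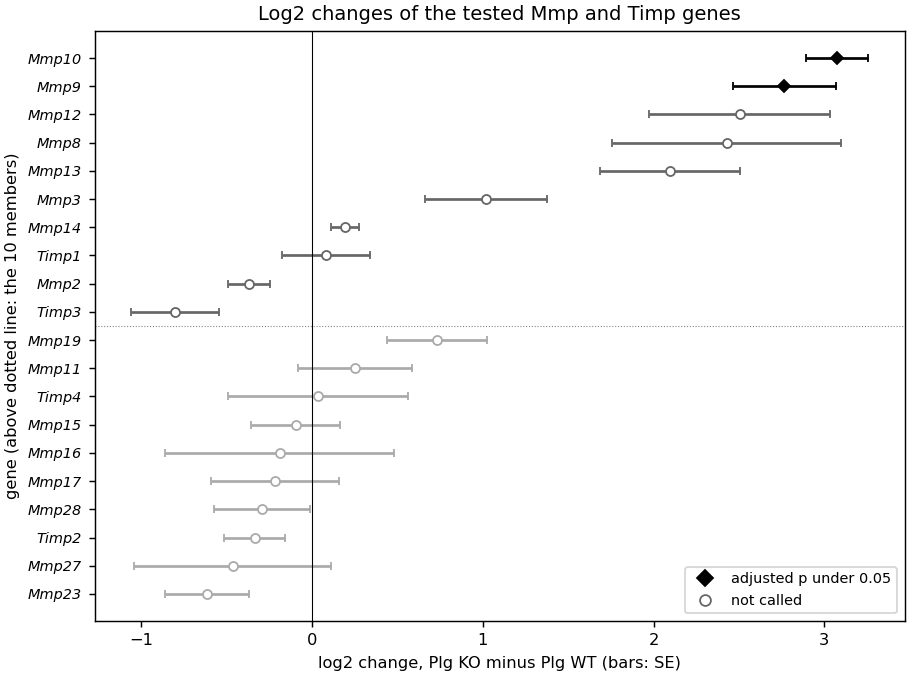
Log2 change from Plg WT to Plg KO (horizontal axis, bars are the SE) for the 10 members, above the dotted line, and the 10 other tested Mmp and Timp genes, below it. Filled diamonds mark Mmp10 (3.07) and Mmp9 (2.76), called at an adjusted p under 0.05; the 10 genes below the line lie between -0.62 and 0.73.

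Mmp10, stromelysin 2, is made mainly by epithelium at wound edges and cleaves laminins, proteoglycans and other proenzymes. Its level was 3.58, 4.21 and 3.01 CPM in Plg WT 1, 2 and 3 and 30.6, 34.8 and 25.5 CPM in Plg KO 1, 2 and 3. The lowest Plg KO library thus stood far above the highest Plg WT library, and the highest library of each group was within 1.40 times its lowest. The rise was 8.41-fold, a log2 change of 3.07 ± 0.18 (SE, n = 3 libraries each, adjusted p = 0.0032, edgeR), and had the second smallest p of all genes (rank 2). Summed over 3 libraries, it rested on 343 counts in Plg WT against 2939 in Plg KO. Mmp10 kept its call in each of the 14 alternative fits, with a log2 change of 2.96 to 3.20. Of the 14, the fit on reads recovered from the authors' CPM used the same counts and only repeats the main test. Without Plg WT 2, and again without Plg WT 3, Mmp10 was the only gene of all called higher.

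Mmp3, stromelysin 1, has overlapping substrates and is made by fibroblasts and keratinocytes alike. It had 12.8, 6.57 and 8.97 CPM in Plg WT 1, 2 and 3 and 16.4, 28.8 and 12.3 CPM in Plg KO 1, 2 and 3. Plg KO 3 lay just under Plg WT 1, so the groups overlapped, and Plg KO 2 stood 2.34 times above Plg KO 3. The log2 difference was 1.02 ± 0.36 (adjusted p = 0.412, edgeR) and it passed in none of the 14 alternative fits (0.60 to 1.30, the lowest without Plg KO 2). Mmp3 and Mmp10 are close copies. Of the 37-base stretches in their transcripts, the length of 1 read, 179 were shared, or 10.1% of those of Mmp3 and 10.6% of those of Mmp10, and how the authors divided such reads was not stated in the sources read. The split between the stromelysins is uncertain to that extent.

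**Figure D2:**
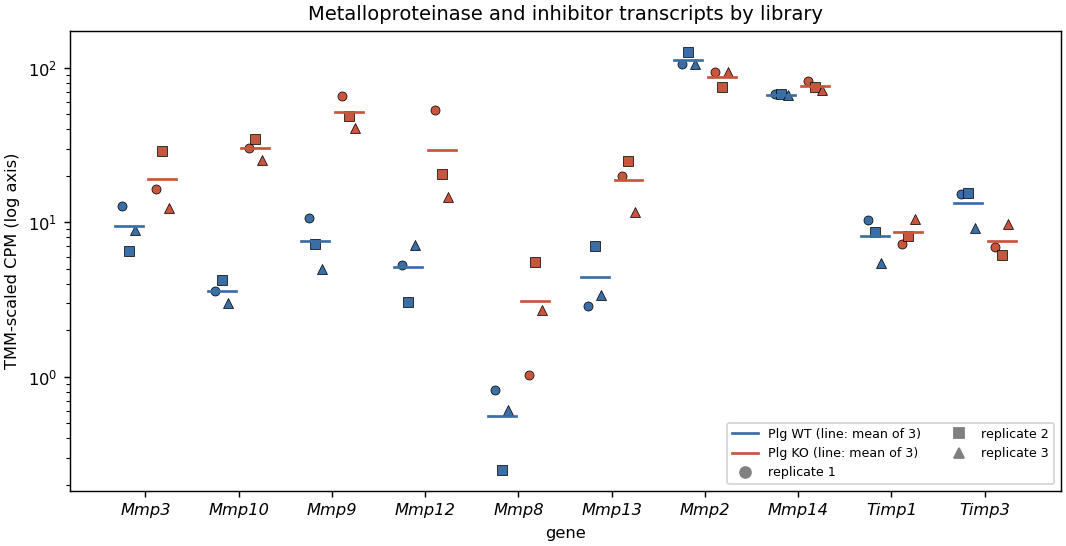
TMM-scaled CPM (log axis) of each member in each library, with Plg WT in blue, Plg KO in red, marker shape for the replicate number and a line at the mean of 3. Mmp10 and Mmp9 separate widely between the groups (means of 3.60 and 30.3 CPM, and of 7.62 and 51.9 CPM), Mmp12 and Mmp8 spread widely within Plg KO, and Timp1 lies at the same height in both groups.

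Mmp9, gelatinase B, cuts type IV collagen and denatured collagen, and is carried by neutrophils and also made by macrophages, osteoclasts and stimulated keratinocytes. It stood at 10.6, 7.25 and 4.97 CPM in Plg WT 1, 2 and 3 and at 65.9, 49.2 and 40.6 CPM in Plg KO 1, 2 and 3. The groups were well apart, with the largest values in Plg KO 1 and Plg WT 1. Mmp9 rose 6.80-fold, a log2 change of 2.76 ± 0.30 (adjusted p = 0.0245, edgeR), on 748 summed counts in Plg WT against 5161 in Plg KO. The size held in every leave-one-out fit, at 2.53 to 3.09, but the call did not: the adjusted p was 0.165 without Plg WT 2, 0.0831 without Plg WT 3, 0.117 without Plg KO 2 and 0.0697 without Plg KO 3.

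Mmp2, gelatinase A, is the gelatinase that fibroblasts make without stimulation. Its level was 106.9, 126.7 and 106.8 CPM in Plg WT 1, 2 and 3 and 93.9, 75.2 and 93.8 CPM in Plg KO 1, 2 and 3. Every Plg KO library lay below every Plg WT library, with Plg KO 2 lowest. The log2 difference was -0.37 ± 0.12 and was not called (adjusted p = 0.376, edgeR). Of the fibroblast genes, 7 of 8 had a negative log2 change, with a median of -0.43, and edgeR, limma-voom and DESeq2 called 0. Unadjusted p by edgeR was under 0.05 for 2 lower, against 4.27% of all tested genes. The summed level of the fibroblast genes was 1199 to 2083 CPM in Plg WT and 790 to 1456 CPM in Plg KO, lowest in Plg KO 2 as for Mmp2. The 2 most abundant, the collagen gene Col1a1 and the proteoglycan gene Dcn, had log2 differences of -0.31 ± 0.38 and -0.44 ± 0.19. Col1a1 alone made 724, 1428 and 587 CPM of the sum for Plg WT 1, 2 and 3. For Plg KO 1, 2 and 3 it made 832, 457 and 924 CPM. In each group Col1a1 was highest where the osteoblast genes given below were (Plg WT 2 and Plg KO 3). The part of bone tissue in the sum was not tested. None of the fibroblast genes was at 0 in any library, and their part in the Mmp2 difference was not tested.

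Mmp14 encodes a membrane-type metalloproteinase of stromal cells that cuts fibrillar collagen and activates pro-Mmp2. Its level was 67.4, 67.4 and 66.5 CPM in Plg WT 1, 2 and 3 and 81.8, 75.4 and 72.5 CPM in Plg KO 1, 2 and 3. The groups did not overlap, the step between them was small, and the Plg WT libraries were nearly equal. The log2 difference of 0.19 ± 0.08 did not pass (adjusted p = 0.544, edgeR).

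The collagenases cut the triple helix of fibrillar collagen. Mmp13, collagenase 3, is made by stimulated fibroblasts, basal keratinocytes and bone cells. It had 2.89, 7.07 and 3.36 CPM in Plg WT 1, 2 and 3 and 19.9, 25.2 and 11.6 CPM in Plg KO 1, 2 and 3. Replicate 2 was the highest in both groups, and no Plg WT library reached a Plg KO library. Its log2 difference was 2.09 ± 0.41 (adjusted p = 0.137, edgeR; 9.74e-06 with DESeq2 and 0.0148 in edgeR without a filter). Osteoblast genes, 5 in all, had a summed level of 15.9 to 76.1 CPM in Plg WT and 12.9 to 51.6 CPM in Plg KO. All 5 had negative log2 changes, with a median of -0.38, and 0 were called (unadjusted p under 0.05 for 0, limma-voom calling 0 and DESeq2 0). The most abundant of them were Ibsp, at a log2 difference of -0.38 ± 0.78, and Alpl, at -0.63 ± 0.48.

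Mmp8, neutrophil collagenase, is stored in neutrophil granules and had the fewest counts of the members, with 30, 7 and 19 counts in Plg WT 1, 2 and 3, against 38, 143 and 97 in Plg KO 1, 2 and 3. These equal 0.819, 0.25 and 0.609 CPM and 1.03, 5.55 and 2.72 CPM. Plg KO 1 lay barely above Plg WT 1, and Plg KO 2 was 5.42 times above Plg KO 1, so the group mean says little about a single library. The log2 difference was 2.43 ± 0.67 (adjusted p = 0.281, edgeR; 0.00767 with DESeq2), and without Plg KO 2 it was 1.72.

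Mmp12, the metalloelastase known from macrophages, had 5.32, 3.07 and 7.14 CPM in Plg WT 1, 2 and 3 and 53.1, 20.6 and 14.5 CPM in Plg KO 1, 2 and 3. All Plg KO libraries were above all Plg WT libraries, and Plg KO 1 was 3.66 times above Plg KO 3, the lowest of its group. For Mmp8, by contrast, Plg KO 1 was the lowest of the group. The highest Mmp12 library of each group was the one with Ddx3y counts (Plg WT 3 and Plg KO 1). The part of sex in Mmp12 was not tested. The log2 difference of 2.50 ± 0.53 was not called (adjusted p = 0.170, edgeR; 0.00976 with DESeq2 and 0.0196 in edgeR without a filter), and without Plg KO 1 it was 1.75. Exons of Mmp1b, on the opposite strand, share 157 bases with those of Mmp12, and Mmp1b had 2 counts in Plg WT libraries together and 11 in Plg KO libraries together.

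Leukocyte markers are given beside Mmp8, Mmp12 and Mmp9, which such cells can carry. All 8 tested genes of an 11-gene neutrophil list had positive log2 changes, with a median of 2.25. By edgeR 0 were called, with unadjusted p under 0.05 for 5 higher, against 4.97% of all tested genes. Limma-voom called 0 and DESeq2 4 higher, against 1.40% of its genes. The summed level was 93.1 to 286 CPM in Plg WT and 402 to 770 CPM in Plg KO, highest in Plg KO 2, where Mmp8 was highest too. Its most abundant genes were Ltf, also a gland product (log2 difference 1.09 ± 0.63), and S100a9 (2.44 ± 0.47). Ltf alone made 256, 41.2 and 62 CPM of the sum for Plg WT 1, 2 and 3. For Plg KO 1, 2 and 3 it made 188, 279 and 296 CPM. S100a9 had 15.8, 27.3 and 34.2 CPM, against 110, 237 and 72.2 CPM, in the same order. Salivary gland genes were also highest for Plg WT 1, so the sum does not stand for neutrophils alone. The part of gland tissue in it was not tested. The defining marker Ly6g had 0, 1 and 0 counts in Plg WT 1, 2 and 3, against 0, 46 and 17 in Plg KO 1, 2 and 3, and Mpo and Ngp were at 0 in Plg KO 1. Macrophage genes had both signs: of 7 tested of 8, 4 had positive and 3 negative log2 changes, with a median of 0.00, and 0 were called (unadjusted p under 0.05 for 1 lower, limma-voom calling 0 and DESeq2 0). Their sum was 63.5 to 78.2 CPM in Plg WT and 64.2 to 82.3 CPM in Plg KO, where Plg KO 1 was the highest library, as for Mmp12. Within Plg WT the sums were 70.3, 78.2 and 63.5 CPM for replicates 1, 2 and 3. Mmp12 ran the other way there, with 5.32, 3.07 and 7.14 CPM. The most abundant macrophage genes, C1qb and Cd68, had log2 differences of -0.03 ± 0.15 and 0.15 ± 0.11, and Marco was at 0 in Plg WT 2. Of 7 osteoclast genes, another source of Mmp9, 4 were tested and 0 called (unadjusted p under 0.05 for 0, limma-voom calling 0 and DESeq2 0), with a median of 0.14. Their sums were 82.4 to 90.8 CPM in Plg WT and 86.4 to 91.2 CPM in Plg KO, of which Acp5 alone made 71.2 to 81.1 CPM. The untested genes had at most 14 counts in any library, so the sums say little of genes other than Acp5 and Ctsk. Acp5 and Ctsk had log2 differences of 0.03 ± 0.09 and -0.10 ± 0.18. The part of any of these cells in the metalloproteinase differences was not tested.

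Timp1, the secreted inhibitor that also binds pro-Mmp9, had 10.4, 8.64 and 5.48 CPM in Plg WT 1, 2 and 3 and 7.23, 8.12 and 10.6 CPM in Plg KO 1, 2 and 3. The groups lay on top of each other, with a log2 difference of 0.08 ± 0.26 (adjusted p = 0.960, edgeR) whose sign turned without Plg WT 3 (-0.14) and without Plg KO 3 (-0.09). Timp1 lies on the X chromosome, and its lowest library in each group was the one with Ddx3y counts (Plg WT 3 and Plg KO 1); the part of sex was not tested. Timp3, the inhibitor held in the matrix, had 15.2, 15.5 and 9.23 CPM in Plg WT 1, 2 and 3 and 6.91, 6.18 and 9.80 CPM in Plg KO 1, 2 and 3. Plg KO 3 exceeded Plg WT 3, so the groups overlapped, and the log2 difference of -0.80 ± 0.26 did not pass (adjusted p = 0.365, edgeR). Timp3 shares 1733 exon bases with Syn3 on the opposite strand. The library kit marks no strand, so their reads cannot be told apart there, and Syn3 itself had 0.865 to 1.57 CPM in the 6 libraries with a log2 difference of -0.11.

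The inducible enzymes were next set against the stromal pair, Mmp2 and Mmp14, as ratios within each library, in which library size cancels. The log2 ratio of Mmp10 to Mmp2 was -4.72, -4.75 and -4.93 in Plg WT 1, 2 and 3, against -1.60, -1.10 and -1.86 in Plg KO 1, 2 and 3 (pseudocount 0.5 CPM). It differed by 3.28, from -4.80 ± 0.12 to -1.52 ± 0.38 (SD, n = 3 each), and against Mmp14 by 2.72, from -4.05 ± 0.20 to -1.33 ± 0.20. Mmp9 differed by 3.10 against Mmp2, from -3.87 ± 0.53 to -0.77 ± 0.37, and by 2.54 against Mmp14, from -3.12 ± 0.50 to -0.58 ± 0.26. In these 4 ratios every Plg KO library was above every Plg WT library, and the exact two-sided permutation p was 0.10 for each, the smallest that 3 against 3 libraries can give (0.16 after adjustment over the 8 ratios computed).

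Mmp3 gave smaller differences. Its log2 ratio to Mmp2 differed by 1.32, with no overlap between the groups (exact permutation p = 0.10), and its ratio to Mmp14 by 0.76, with overlap (exact permutation p = 0.20). Timp1 differed by 0.48 against Mmp2 (exact permutation p = 0.20) and by -0.08 against Mmp14 (exact permutation p = 0.80), and both overlapped. Without Plg KO 2 the difference for Mmp3 was 0.88 against Mmp2 and 0.42 against Mmp14, and without Plg WT 3 that for Timp1 against Mmp2 was 0.27.

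**Figure D3:**
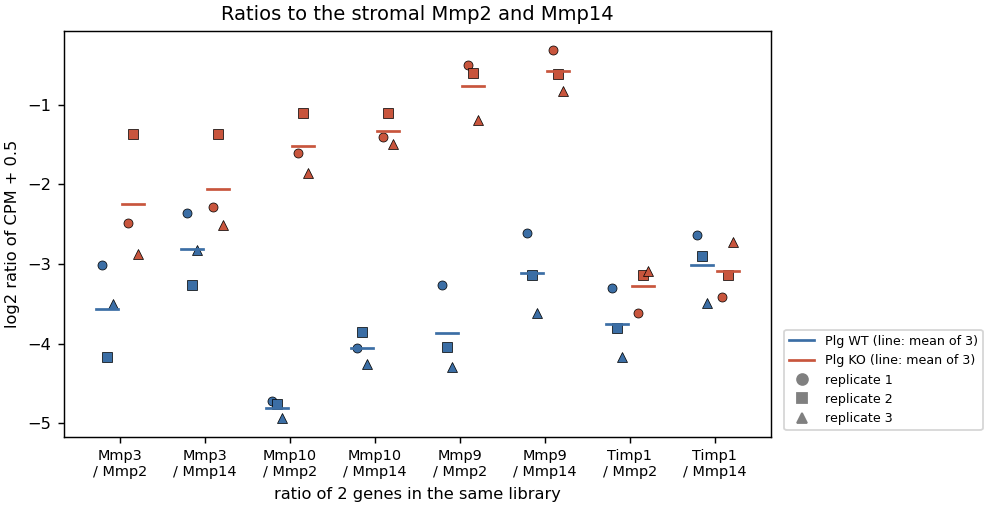
Log2 ratio of CPM plus 0.5 for each of 8 gene pairs (horizontal axis), with 1 point per library and a line at the mean of 3 Plg WT (blue) or 3 Plg KO (red) libraries. Ratios of Mmp10 and Mmp9 to either stromal enzyme stand apart between the groups by 2.54 to 3.28, whereas those of Timp1 overlap.

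Per length of transcript, the order of the members differed between the groups. The CPM per kilobase of merged exons was highest for Mmp2 in both groups, at 33.7 ± 3.40 in Plg WT and 26 ± 3.20 in Plg KO (SD, n = 3), with no library of the next member reaching it. In Plg WT the order went on with Mmp14 (11.3 ± 0.0833), Timp1 (9.20 ± 2.81) and Mmp3 (5.24 ± 1.74), neighbours whose libraries overlapped, then Mmp9 (2.15 ± 0.808), Mmp10 (2.09 ± 0.349), Mmp13 (1.66 ± 0.856) and Timp3 (1.64 ± 0.437), which overlapped too. Mmp12 (0.716 ± 0.282) and Mmp8 (0.231 ± 0.119) came last and apart. In Plg KO, Mmp10 followed Mmp2 at 17.6 ± 2.68, from rank 6 in Plg WT to rank 2. Mmp9 at 14.7 ± 3.64, Mmp14 at 12.8 ± 0.796, Mmp3 at 10.7 ± 4.77 and Timp1 at 9.74 ± 1.96 came next, and from Mmp10 down to the last member, Timp3 at 0.937 ± 0.235, no neighbours in the order separated. Merged exons count every annotated end, so the level of a gene with long unused exons is understated.

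On the same scale, Mmp2 and Mmp14 made up 75%, 81.2% and 80.1% of the summed level of the 8 metalloproteinases in Plg WT 1, 2 and 3, against 40.7%, 35.1% and 49.6% in Plg KO 1, 2 and 3. The stromelysins Mmp3 and Mmp10 took 16.0%, 10.1% and 12.6% in Plg WT and 26.3%, 36.3% and 26.9% in Plg KO, and Mmp9 took 5.25%, 3.40% and 2.62% and then 18.2%, 14% and 14.2%. The stromal share was thus lower, and the summed stromelysin share and the Mmp9 share higher, in each Plg KO library than in any Plg WT library. Of the 2 stromelysins only Mmp10 separated, with 3.62%, 4.06% and 3.27% in Plg WT and 17.4%, 20.3% and 18.4% in Plg KO. The share of Mmp3 overlapped, with 12.4%, 6.06% and 9.31% in Plg WT and 8.91%, 16.1% and 8.49% in Plg KO. The summed level itself was 57.3, 60.2 and 53.5 in Plg WT 1, 2 and 3, against 102, 99.6 and 80.6 in Plg KO 1, 2 and 3. Set against the sum of Timp1, Timp2, Timp3 and Timp4, the ratio was 2.07, 2.67 and 3.11 in Plg WT and 6.27, 5.12 and 3.11 in Plg KO, where Plg KO 3 reached only the level of Plg WT 3. These sums and shares were made over members chosen with results known and carry no test.

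**Figure D4:**
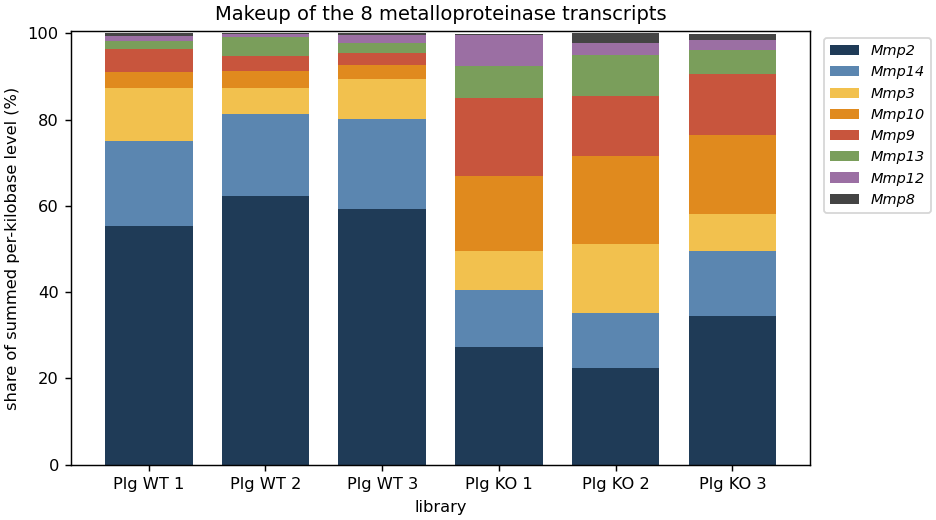
Share of each metalloproteinase (percent, vertical axis) in the summed per-kilobase level of the 8, with 1 bar per library. The dark and light blue parts, Mmp2 and Mmp14, fill 75% to 81.2% of the Plg WT bars and 35.1% to 49.6% of the Plg KO bars.

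For 5 of the members, position on the chromosome is shared, which did not enter their choice. Mmp13, Mmp12, Mmp3, Mmp10 and Mmp8 lie in this order in 1 cluster of 10 Mmp genes on GRCm38 chromosome 9, from 7272514 to 7699585 (427 kb), and Mmp10 (ENSMUSG00000047562) spans 7502352 to 7510240. The other 5 members lie elsewhere, with Mmp9 (ENSMUSG00000017737) on chromosome 2 at 164940780 to 164955850. Inside the cluster the 5 members had log2 differences of 1.02 to 3.07, whereas Mmp27, the next gene beyond Mmp8, had -0.47 ± 0.58 on 100 summed counts in Plg WT against 76 in Plg KO. Mmp1a and Mmp7 had 0 counts in every library, and Mmp1b and Mmp20 too few to test. Mmp27 was thus the only gene of the cluster outside the members that could be tested. The members were chosen with results of these libraries known, so their contrast with Mmp27 and the flanking genes is only a description. Of the flanking coding genes, Dcun1d5, Tmem123 and Birc2 had log2 differences of 0.00 ± 0.08, 0.04 ± 0.09 and 0.05 ± 0.11. Dync2h1 and Birc3, also flanking, had 0.25 ± 0.17 and 0.26 ± 0.15, and none of these 5 was called by edgeR.

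**Figure D5:**
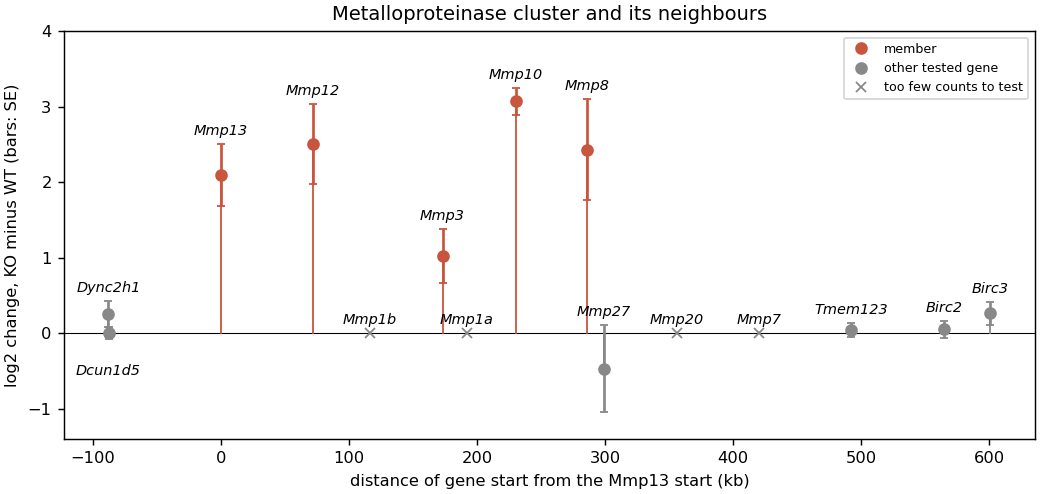
Log2 change (vertical axis, bars are the SE) of the genes of the chromosome 9 metalloproteinase cluster and the coding genes beside it, by distance of the gene start from the Mmp13 start in kb. The 5 members (red) lie at 1.02 to 3.07, the tested neighbours (grey) at -0.47 to 0.26, and crosses mark genes with too few counts. The members were chosen with results known.

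Promoters of several clustered members hold the letters TGANTCA shortly before the transcript start. AP-1, the pair of Fos and Jun factors known to drive metalloproteinase genes, binds such letters with C or G at the middle base, N in the search, which also admits A and T there. The searched pattern is its own reverse complement, so 1 search covers both strands. In RefSeq's promoter windows on GRCm38.p6, searched over the 250 bases before the start, the letters occurred once each for Mmp3, Mmp10, Mmp13 and the second of 2 listed starts of Mmp12, and not for Mmp8, Mmp14, Timp1, Timp3 or the first start of Mmp12. Of all 32851 windows, 6.75% held them. Mmp2 and Mmp9 are not in the table used here. The 120 bases before the start are shown for the 4 windows with the letters, which stand in capitals, and for Mmp14, the stromal enzyme with a log2 difference of 0.19, all on the plus strand. They are chr9:7502222-7502341 for Mmp10, chr9:7445702-7445821 for Mmp3, chr9:7272394-7272513 for Mmp13, chr9:7347254-7347373 for the second start of Mmp12 and chr14:54431478-54431597 for Mmp14.
Mmp10: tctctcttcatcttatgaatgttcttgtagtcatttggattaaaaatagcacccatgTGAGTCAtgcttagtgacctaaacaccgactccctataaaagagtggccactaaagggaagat
Mmp3: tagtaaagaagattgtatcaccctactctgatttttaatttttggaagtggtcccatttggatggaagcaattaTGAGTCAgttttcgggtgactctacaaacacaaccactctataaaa
Mmp13: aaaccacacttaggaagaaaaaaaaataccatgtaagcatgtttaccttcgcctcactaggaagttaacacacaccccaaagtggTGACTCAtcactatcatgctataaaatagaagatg
Mmp12: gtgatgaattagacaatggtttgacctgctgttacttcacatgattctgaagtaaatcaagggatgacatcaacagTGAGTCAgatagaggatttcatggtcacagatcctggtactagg
Mmp14: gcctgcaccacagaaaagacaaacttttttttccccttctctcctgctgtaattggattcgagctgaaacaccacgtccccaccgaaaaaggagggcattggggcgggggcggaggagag

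The first base of the letters lies 63, 46, 35 and 44 bases before the start of Mmp10, Mmp3, Mmp13 and Mmp12, in that order. Over the whole family the letters were found for 8 of the 10 clustered genes, among them Mmp1a and Mmp7, which were at 0 counts, and for 0 of the 12 genes elsewhere that have a window. Of the 8, the match of Mmp20 has A at the middle base (TGAATCA), and the other 7 have C or G. A match is a string of letters and not a measured site, and the clustered genes are related copies. Of 10 AP-1, ETS and Runx genes, edgeR called 0 (unadjusted p under 0.05 for 1 higher, limma-voom calling 0 and DESeq2 1 higher), with a median log2 change of 0.05. Runx2, a factor of bone that also acts on Mmp13, had the smallest p (log2 difference 0.63 ± 0.16, adjusted p = 0.234, edgeR), followed by Junb at 0.25 ± 0.18 and Jund at -0.22 ± 0.19.

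Among cytokines known to induce metalloproteinases, Il1b and Osm rose. Of 8 tested genes of a 10-gene list edgeR called these 2 higher and 0 lower (7 and 0 at unadjusted p under 0.05, 7 and 0 by DESeq2, 1 and 0 by limma-voom). Over all genes the shares higher were 0.191%, 4.97%, 1.40% and 0.180%, in the same order. All 8 had positive log2 changes, and the median was 1.48. Il1b, which encodes interleukin-1 beta, had a log2 change of 2.85 ± 0.33 (adjusted p = 0.0252, edgeR) and Osm, which encodes oncostatin M, 3.01 ± 0.39 (adjusted p = 0.0446, edgeR). Neither was called without Plg WT 2, without Plg WT 3 or with the replicate number as a block. In those fits edgeR called only Mmp10 higher, or Mmp10 and Mmp9 with the block. The epidermal growth factor receptor ligand Areg had 1.48 ± 0.25 (adjusted p = 0.0918, edgeR). Il17a was at 0 in all 6 libraries.

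By the root mean square difference of centred log2 levels over the 6 libraries, the genes most like Mmp10 among 13144 were Ppbp (0.318), Mmp9 (0.328), Il1b (0.359), Cxcl5 (0.388) and Clec4e (0.398). Those most like Mmp9 were Mmp10 (0.328), Trem1 (0.493), Cxcl3 (0.497), Clec4e (0.5) and Ptgs2 (0.520). Ppbp, Cxcl5 and Cxcl3 encode chemokines that draw neutrophils, Clec4e and Trem1 are receptors of myeloid cells, and Ptgs2 is the inducible cyclooxygenase. Mmp10 and Mmp9 were thus each in the other's list, while Mmp3 stood 1.06 from Mmp10 and Mmp13 0.565. Levels were taken as log2 of CPM plus 0.5, which shrinks the changes of genes near 0. Clec4e and Ptgs2, with log2 changes of 3.98 and 4.13, had at most 0.224 and 0.246 CPM in Plg WT. The measure takes in the step between the groups, so genes with similar log2 changes, such as Ppbp (2.88) and Il1b (2.85), come out as alike. The mutual listing therefore adds nothing to the changes of Mmp10 and Mmp9 given above. The genes most like Mmp2 were Gbp9, Lix1l, Rpl7-ps9, Ralgapa2 and Celf4 (0.0548 to 0.0649), with small values for a gene that itself varied little. Mmp14 was at 0.311 from Mmp2 and Timp3 at 0.313.

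The rest of the family gave no call. Of 17 further Mmp and Timp genes, 10 could be tested and edgeR called 0 (unadjusted p under 0.05 for 1 higher and 1 lower, limma-voom calling 0 and DESeq2 0), with a median log2 change of -0.20. The smallest p values belonged to Mmp23, with a log2 difference of -0.62 ± 0.25, Mmp19, with 0.73 ± 0.29, and the abundant inhibitor Timp2, with -0.34 ± 0.18. Among 16 tested of 20 genes that activate, bind or clear metalloproteinases, edgeR called 0, with a median log2 change of 0.06. Unadjusted p by edgeR was under 0.05 for 5 higher and 0 lower, against 4.97% and 4.27% of all tested genes. Limma-voom called 0 and DESeq2 1 higher, against 1.40% of its genes. Plat, the tissue plasminogen activator, had 1.12 ± 0.16 (adjusted p = 0.0619, edgeR), the urokinase Plau 0.64 ± 0.22 and its receptor Plaur 0.93 ± 0.35.

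Among 18 genes of matrix proteins that these enzymes cut, the basement membrane laminin chains Lama3 and Lamb3 rose, with log2 changes of 1.31 ± 0.14 and 0.80 ± 0.09 (adjusted p = 0.0205 and 0.0252, edgeR). As for Il1b and Osm, neither kept its call without Plg WT 2, without Plg WT 3 or with the replicate number as a block. Of the list edgeR called 0 lower (unadjusted p under 0.05 for 4, against 4.27% of all tested genes, limma-voom calling 0 and DESeq2 0). Col1a1, Dcn and Lum, 3 of the 18, are also among the fibroblast genes above. In the list as a whole 13 of 18 had negative log2 changes, and the median was -0.20. Keratinocyte markers, of the epithelium that makes these chains, had a median of -0.11 over 8 genes with 0 called (unadjusted p under 0.05 for 0, limma-voom calling 0 and DESeq2 0), and the most abundant, Krt4 and Krt14, had 0.13 ± 0.23 and -0.06 ± 0.14.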

How the data were processed

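Total RNA of gingiva was sequenced with 37-base paired reads from Nextera XT libraries, per the labels' protocols. The deposited count table holds raw counts per gene (22 entries that name no gene, at most 3.55e-05% of a library, were left out). The authors' deposited CPM table, TMM-scaled, gave the gene symbols, and 1 constant per column returned whole reads for 100% of its values (tolerance 0.01), equal to the raw counts, and a count test on them, an alternative chosen after seeing the data, called 34 genes higher and 8 lower. The submitters' processing notes name DESeq2, limma, edgeR and STAR 2.5.2a, and mm10 and GRCm38.p3 as builds. The counting tool was not named there.

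The main test was edgeR 4.0.16 (R 4.3.3), quasi-likelihood, on raw counts, with TMM factors, filterByExpr, genotype as the only term and Benjamini-Hochberg adjustment over 17757 genes, calling adjusted p under 0.05. An SE is the log2 change over the square root of F. Ratios were tested by exact permutation over libraries. Alternatives were DESeq2 1.42.0, limma-voom (limma 3.58.1), upper-quartile or RLE factors, a stricter filter (1 CPM or more in 3 libraries or more) or none, the replicate number as a block, other pseudocounts and leaving out each library. Positions and exons came from GENCODE M21. The edgeR, DESeq2 and limma-voom tests of Plg KO against Plg WT were also run on data simulated from the means and dispersions of the main fit. The others were not.

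The members and lists were chosen with earlier results of these data known. Named were all 10 members. Of the lists of other family members, activators and binding proteins, inducing cytokines, AP-1 and ETS factors and matrix substrates, called genes and the 3 smallest p were named, and of cell marker lists the 2 most abundant genes. An item of the matrix list is not reported here. Also named were the 5 genes most like Mmp10, Mmp9 and Mmp2, of those with a mean of at least 1 CPM. Ly6g, Mpo, Ngp, Marco, Il17a, Il17f, Ms4a1 and the genes beside the cluster were named after their values were seen.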

Additional observations from a re-analysis of the deposited data

How the results depend on the processing

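In the 14 alternative fits Mmp10 kept its call in all and Mmp9 in 10, and 9 members kept their direction throughout, Timp1 (0.08, -0.14 to 0.30 with 1 library left out) being reversed without Plg WT 3 (-0.14) and without Plg KO 3 (-0.09). Mmp2, Mmp3, Mmp14, Timp1 and Timp3 were called in none. The fit on reads recovered from the authors' CPM is 1 of the 14, and it repeats the main test because the counts are the same. Members called higher numbered 2 in the main test, 5 with DESeq2, 4 without a filter and 1 to 2 when 1 library was left out. Genes called numbered 34 higher and 8 lower in the main test, 263 and 132 with DESeq2, 122 and 40 without a filter, and 1 to 184 higher and 1 to 35 lower when 1 library was left out (most without Plg WT 1); the cause was not tested. The ratio of Timp1 to Mmp14 (-0.08, and -0.32 to 0.10 with 1 library left out) turned to 0.10 without Plg WT 1 and 0.08 without Plg KO 1. The other ratios kept their direction under every pseudocount, factor and left-out library.

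With the replicate number as a block, edgeR called 2 genes higher, Mmp9 and Mmp10, and 0 lower. The numbers do not pair the libraries: deviations from the group means correlated at -0.255, -0.0131 and -0.225 for replicates 1, 2 and 3, and 0 of the 6 libraries correlated best with its own number. The sign-flip test over same-numbered pairs gave an exact permutation p of 0.25 for each ratio but those of Timp1, the smallest 3 pairs allow. Mmp8, at 56 counts over Plg WT, is the member most limited by depth.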

Other observations

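Other cell markers were measured in the same libraries and belong to no comparison above. Of 3 mast cell genes, all lay lower in every Plg KO library than in any Plg WT library, against 7.18% of all tested genes. Their median log2 change was -0.86, and their summed level was 15.3 to 22.9 CPM in Plg WT and 8.48 to 12.0 CPM in Plg KO. EdgeR called 0 (unadjusted p under 0.05 for 3 lower, against 4.27% of all tested genes, limma-voom calling 0 and DESeq2 1). The chymase Cma1, the most abundant, had a log2 difference of -0.86 ± 0.20, and Cpa3 -1.12 ± 0.37. Mast cell chymase and tryptase are known to activate some metalloproteinases. Of 3 fat cell genes, Cidec fell by edgeR's test (log2 change -2.43 ± 0.30, adjusted p = 0.0363), against 0.0451% of all tested genes called lower. Cidec was not called by limma-voom, nor with the replicate number as a block, where edgeR called 0 genes lower. Adipoq had a log2 difference of -1.32 ± 0.36. For the fat list, unadjusted p by edgeR was under 0.05 for 3 lower, against 4.27% of all tested genes. Limma-voom called 0 and DESeq2 2 lower, against 0.702% of its genes. The summed level of the fat list was 13 to 30.8 CPM in Plg WT and 4.66 to 5.21 CPM in Plg KO. Of the B and T cell genes the most abundant were the B cell gene Cd79a, with 2.31 to 15.4 CPM in Plg WT and at most 0.420 CPM in Plg KO, and the T cell gene Cd3d, with a log2 difference of -0.26 ± 0.33 and overlapping groups. The B cell gene Ms4a1, named after its values were seen, had 0.961 to 6.06 CPM in Plg WT and at most 0.112 CPM in Plg KO. Of 4 B and T cell genes edgeR called 0, with unadjusted p under 0.05 for 2 lower, against 4.27% of all tested genes. For these 4, limma-voom called 0 and DESeq2 2 lower, against 0.702% of its genes. Endothelial genes (median -0.06 over 4, with Pecam1 at -0.22 ± 0.18 and Vwf at 0.01 ± 0.19), salivary gland genes (median 0.77 over 5, with Muc5b at 0.77 ± 0.60 and Muc19 at 0.81 ± 0.51) and skeletal muscle genes (median -0.04 over 3, with Acta1 at -0.04 ± 0.54 and Ckm at 0.06 ± 0.52) had 0 called by edgeR, unadjusted p under 0.05 for 0, limma-voom calling 0 and DESeq2 0.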
